A study of Mus musculus with 5 samples.

Results

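Matricellular proteins are secreted into the extracellular matrix but act mainly on cells rather than as structural fibres. The 10 genes described here are Postn, Wisp2, Cthrc1, Cilp, Comp, Ctgf, Cyr61, Tnc, Thbs1 and Sparc, taken by symbol from the 31053 genes of the deposited tables, and all 10 were found. The members were chosen by their measured values in fibroblasts of control and disease hearts, so that contrast is described and not tested. They were measured as molecules (unique molecular identifiers, UMIs) in single cells of hearts from mice that lacked Pdcd1, the gene of the inhibitory receptor PD-1. The control group was Ctla4+/+Pdcd1-/- (4 mice, 2 libraries, replicates 1 and 2) and the disease group Ctla4+/-Pdcd1-/- (10 mice, 3 libraries, replicates 3, 4 and 5). The disease genotype, with 1 functional copy of the gene of the inhibitory receptor CTLA-4, is the study's model of the myocarditis caused by immune checkpoint inhibitors. The absence of Pdcd1 is shared by both groups, so no group is a wild type. The labels of 3 libraries print the second gene as Pdcd2 or Pdcd3, whereas the series' design text gives Pdcd1-/- for both groups, which is followed here. Cells sorted as DRAQ5+DAPI- (nucleated and alive) came from pooled digested hearts. Age, sex and the number of mice in each library are not given in the sources used here, so p-values measure only the spread between these libraries, which may be technical.

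As background, periostin (Postn) is a marker of activated cardiac fibroblasts and myofibroblasts, and tenascin C (Tnc) appears in the heart at sites of injury and remodelling. Ctgf, Cyr61 and Wisp2 belong to the CCN family. The first pair are well known targets of the YAP/TAZ-TEAD and SRF transcription factors, which respond to mechanical load, and Wisp2 lacks the carboxy-terminal domain of the other family members. Thbs1 activates latent TGF-beta, Sparc binds collagen, and Cilp and Comp are best known from cartilage, Cilp being also a fibroblast gene of the remodelling heart. Cthrc1 is a secreted marker of fibroblasts in healing scars.

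The sequence just upstream of 3 of the genes is shown because these genes carry the main contrasts below: Postn and Cilp were higher in disease fibroblasts and tended to occur in the same cells, and Cyr61 was lower in every disease library than in either control in 4 cell classes. Of the 10 genes, 5 were matched in the promoter table from RefSeq (GRCm38.p6). Each line gives the 150 bases before the RefSeq start, and capitals mark a TATA box (TATAAA) or a TEAD motif (GGAATG, here on the opposite strand as CATTCC).
Postn, chr3:54360957-54361106, plus strand: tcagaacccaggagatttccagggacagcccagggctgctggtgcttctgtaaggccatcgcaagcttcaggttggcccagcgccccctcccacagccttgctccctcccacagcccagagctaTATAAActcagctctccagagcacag
Cilp, chr9:65265030-65265179, plus strand: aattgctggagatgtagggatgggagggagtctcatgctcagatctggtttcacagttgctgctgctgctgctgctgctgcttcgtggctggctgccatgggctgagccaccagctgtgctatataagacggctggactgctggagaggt
Cyr61, chr3:145649986-145650135, minus strand: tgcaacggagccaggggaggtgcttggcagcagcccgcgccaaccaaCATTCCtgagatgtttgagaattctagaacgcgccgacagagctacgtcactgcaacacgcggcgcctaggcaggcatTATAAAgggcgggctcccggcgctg
Postn had TATAAA starting 26 bases before its start and Cyr61 25 bases before. The TEAD letters in Cyr61 lay 103 bases before the start. None of the motifs searched was found in the Cilp window. For the TATA box only TATAAA was searched, so similar letters such as the tatataag in that window were not counted. The search does not show that Cilp lacks a TATA box. Both strands of the same 150 bases were searched in 32851 promoters, of which 7.59% held GGAATG, 7.57% TATAAA, 4.24% the AP-1 motif TGANTCA and 0.916% the SRF CArG box. The motifs do not overlap in these windows, and a match of letters is a description and not a binding site.

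The genes themselves lie apart in the mouse genome (GRCm38, GENCODE). Postn (ENSMUSG00000027750) is at chr3:54361109-54391037 and Cyr61 (ENSMUSG00000028195) at chr3:145646976-145649981. Wisp2 (ENSMUSG00000027656) is at chr2:163820861-163833146 and Thbs1 (ENSMUSG00000040152) at chr2:118111876-118127133. Cilp (ENSMUSG00000042254) is at chr9:65265180-65280605, Comp (ENSMUSG00000031849) at chr8:70373558-70382066 and Ctgf (ENSMUSG00000019997) at chr10:24595442-24598683. Tnc (ENSMUSG00000028364) is at chr4:63959785-64047015, Sparc (ENSMUSG00000018593) at chr11:55394500-55423183 and Cthrc1 (ENSMUSG00000054196) at chr15:39076932-39087121.

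The files held 47319 barcodes, of which 37011 were kept, with 5488 to 9472 per library and median depths of 3331 to 4530 UMIs. Total UMIs per library ran from 24991704 to 55053988, and library pairs shared 86 to 161 barcode sequences. A barcode was called fibroblast when Dcn, Col1a1 and Pdgfra summed to 5 UMIs or more and it met no other gate, which gave 10377 barcodes (1354 to 3144 per library). Endothelial (Pecam1, Cdh5, Egfl7) and mural gates (Rgs5, Kcnj8, Abcc9, Notch3, Myh11, Vtn) gave 10994 and 315 barcodes. Fibroblast markers not used in the gate (Col1a2, Col3a1, Lum, Dpt, Tcf21, Gsn) were all detected, and their sum in the other classes was 0.595% to 5.05% of the fibroblast level. Their sum was 47720 and 49074 CPM (UMIs per 1000000 UMIs of the class) in the controls, against 46897, 18419 and 26955 CPM in disease replicates 3, 4 and 5, where Gsn, its main part, was at 39911, 9409 and 19088 CPM. Pdcd1 had 74 to 11941 UMIs in every library, so its counted part does not check the genotype. Ctla4 in lymphocyte barcodes was at 364 and 25.1 CPM in control libraries, against 102, 589 and 458 CPM in the disease libraries, an overlap that does not check the labels either. Disease replicate 4 held the most lymphocytes, 28.2% of its barcodes against 4.96% to 10.3% elsewhere.

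In fibroblasts, Postn, Wisp2, Cilp and Sparc stood higher in every disease library than in either control, and Cyr61 and the sparse Cthrc1 stood lower. These are the values the choice rested on. A different mixture of fibroblasts in the libraries and a change within the cells cannot be told apart in such sums. Markers of other cells in the fibroblast barcodes also differed without overlap. The endothelial list (Emcn, Esam, Tie1, Cav1, Fabp4, Ly6c1) summed to 443 and 351 CPM in control libraries, against 524, 1201 and 805 CPM in disease. The mural list (Pdgfrb, Des, Acta2, Tagln, Mcam, Higd1b) summed to 145 and 174 CPM against 184, 193 and 206 CPM. The gate genes stood at 19859 and 20258 CPM against 23208, 24516 and 23171 CPM. The part of these markers in the differences was not tested. Postn was at 101 and 68.3 CPM in control libraries, against 215, 215 and 414 CPM in disease, a log2 fold change of 1.69 (SE 0.39). Replicate 5 stood well above the other disease libraries. Wisp2, the CCN protein without the last domain, was at 65.5 and 86.1 CPM against 169, 183 and 157 CPM, a log2 fold change of 1.12 (SE 0.15). Its disease libraries lay close together, at 169 ± 12.9 CPM (SD, n = 3), where Postn was at 281 ± 115 CPM (SD, n = 3).

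**Figure D1:**
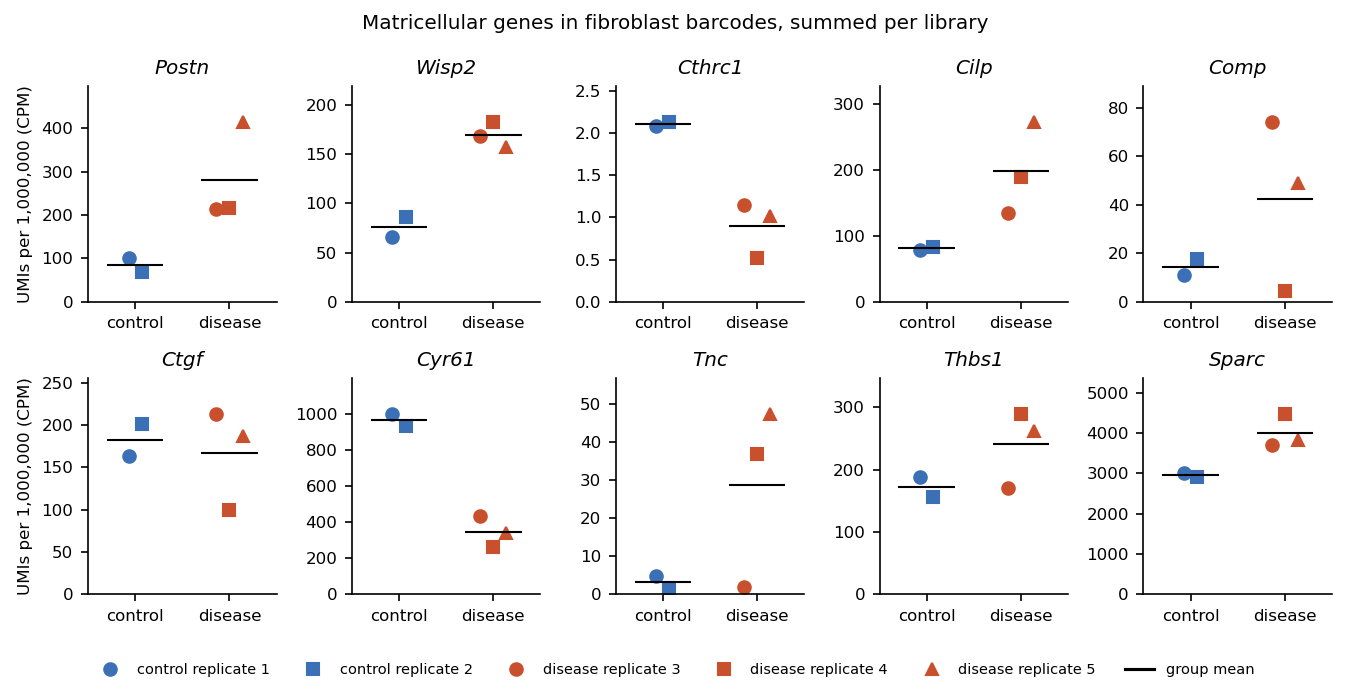
Level of each gene in fibroblast barcodes, as UMIs per 1000000 UMIs of the class in each library (CPM) (linear axis from 0), with control libraries in blue, disease libraries in orange and a bar at the group mean. Wisp2 and Sparc separate the groups with little spread, Postn and Cilp separate them with replicate 5 highest, and Comp and Tnc do not separate them.

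Cilp, a matrix protein that binds TGF-beta, was at 79.3 and 82.5 CPM in control libraries, against 134, 190 and 273 CPM in disease (log2 fold change 1.26, SE 0.31), again without overlap. Sparc, the collagen-binding protein, was at 3008 and 2898 CPM against 3700, 4461 and 3815 CPM, a smaller log2 fold change of 0.39 (SE 0.13) but also without overlap.

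Comp and Tnc spread widely over the disease libraries. Comp, a thrombospondin family member that binds collagen, was at 11.2 and 17.5 CPM in control libraries, against 74.1, 4.28 and 49.0 CPM in disease (log2 fold change 1.54, SE 1.05). Tnc was at 4.85 and 1.54 CPM in control libraries, against 1.91, 36.9 and 47.3 CPM in disease (log2 fold change 3.01, SE 1.28). The disease library lowest in Comp was replicate 4 and the one lowest in Tnc was replicate 3, so neither gene separated the groups. Thbs1 was at 187 and 157 CPM against 170, 289 and 263 CPM (log2 fold change 0.44, SE 0.25). Ctgf was at 163 and 201 CPM against 212, 99.6 and 187 CPM (log2 fold change -0.17, SE 0.33), with disease libraries on both sides of the controls. Cthrc1 was sparse, with 6 to 42 UMIs per library, at 2.08 and 2.13 CPM in control libraries, against 0.513 to 1.15 CPM in disease. Its level in endothelial barcodes was 22.5% to 129% of the fibroblast level of the same library, so these low values do not mark fibroblasts.

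Cyr61, an integrin-binding CCN protein, was at 999 and 936 CPM in control libraries, against 435, 261 and 341 CPM in disease, a log2 fold change of -1.53 (SE 0.22). Every disease library lay far below both controls. Over all 13373 genes tested in fibroblasts, 0.359% were called higher and 12.6% lower (13% in all) by edgeR's quasi-likelihood test at an adjusted p under 0.05, and in 48.6% the groups did not overlap. Among the 10 members Postn and Wisp2 were called higher, Cyr61 was called lower and 6 did not overlap, counts that the choice of the members used. Fold changes also moved with the GC content of the first 300 transcript bases (Spearman's rho -0.49 across genes, which are not independent replicates). That stretch was 69% GC in Cyr61 and 67.3% in Ctgf, against 50.7% in Postn and 49.7% in Cilp. With the trend removed, Cyr61 was at -0.87, Ctgf at 0.44, Postn at 1.55, Wisp2 at 1.14, Cilp at 1.12 and Sparc at 0.66, so that Ctgf changed sign.

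Leaving out 1 library at a time moved the log2 fold change of Postn between 1.28 and 2.03, that of Cilp between 0.95 and 1.48 and that of Cyr61 between -1.72 and -1.36. Wisp2 stayed between 0.96 and 1.30. Comp ranged from 0.88 to 2.08, and Tnc from 2.46 to 4.21. The calls, like the values, come from the contrast the members were chosen with and are given only as a description. Postn was no longer called without control replicate 1 (2.03), control replicate 2 (1.41), disease replicate 3 (1.85) or disease replicate 5 (1.28), nor with barcodes of more than 1 gate kept (1.62). Cyr61 was no longer called without control replicate 1 (-1.45), control replicate 2 (-1.60) or disease replicate 5 (-1.53). Cilp (1.48) and Tnc (3.56) were called without disease replicate 3, and Comp (2.08) without disease replicate 4. Cilp was also called by DESeq2 (1.30) and without the filter on low counts (1.26), and Sparc by DESeq2 (0.44).

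The level in a class is the share of barcodes with a UMI times the UMIs per positive barcode, and the genes divided differently between these. Each fibroblast barcode was thinned to 1000 UMIs, which left out 11 to 19 barcodes per library. Postn was then found in 4.19% and 2.98% of control barcodes (Wilson 95% intervals 3.54% to 4.94% and 2.19% to 4.03%). In disease it was found in 5.91%, 6.41% and 10.3% (4.92% to 7.08%, 5.41% to 7.59% and 9.06% to 11.7%). In lymphocytes, which should lack it, the share was 0% to 0.778%, from fibroblast depths of 5420 to 6124 and lymphocyte depths of 2935 to 4375 median UMIs. The intervals cover counting error only. UMIs per positive barcode were 1.78 and 2.00 in the controls and 2.38, 2.48 and 2.61 in disease, so that both more barcodes and more molecules per positive barcode were counted in each disease library. Of a log2 ratio of 1.45 between the groups' mean levels, 1.05 lay in the share and 0.40 in the level per positive barcode.

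Wisp2 differed mostly in its share at this depth. It was found in 5.08% and 4.99% of control barcodes and in 10.1%, 10.1% and 8.29% in disease. UMIs per positive barcode overlapped, at 1.55 and 1.84 against 1.75, 1.96 and 1.63, and the parts were 0.91 for the share and 0.07 for the level. With a gate of 10 UMIs the level per positive barcode did not overlap either (parts 0.98 and 0.15). Cilp was alike, with 3.96% and 3.43% against 5.48%, 8.72% and 8.44% of barcodes, and parts of 1.00 and 0.02. Its level part rested on controls that differed, being -0.26 without control replicate 1 and 0.30 without control replicate 2. At 2000 UMIs it was 0.33 without overlap. Sparc differed mostly in its level, but its share was already high in the controls and had limited room to rise. It was found in 86.7% and 85.6% of control barcodes and 89.8%, 90.3% and 89.3% in disease, while UMIs per positive barcode were 3.13 and 3.09 against 3.78, 4.19 and 3.81, giving 0.06 for the share and 0.34 for the level. Cyr61 was lower in both, with 45.4% and 43.3% of control barcodes against 28.04%, 21.0% and 24.98%, and 2.16 and 2.08 against 1.53, 1.43 and 1.40 UMIs per positive barcode.

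**Figure D2:**
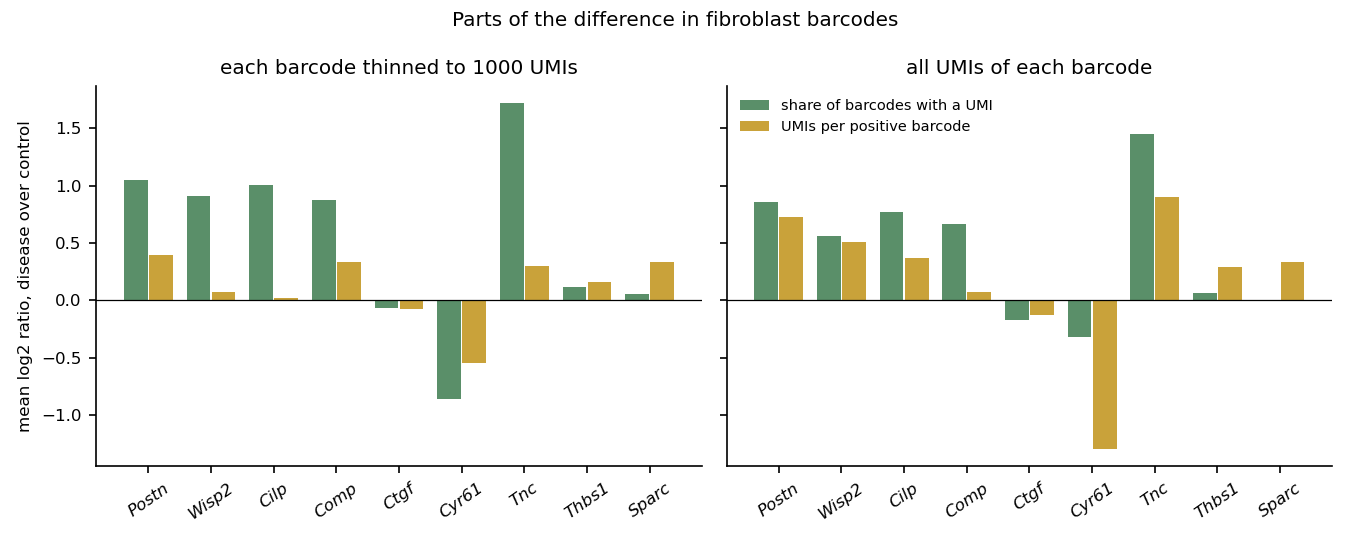
Mean log2 ratio of disease over control in fibroblast barcodes, divided into the share of barcodes with a UMI (green) and the UMIs per positive barcode (yellow), at 1000 UMIs per barcode (left) and with all UMIs (right). Sparc lies in the level and Cilp mostly in the share in both panels, while Wisp2 and Cyr61 shift from share to level when all UMIs are used.

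The division depends on depth, because a barcode with few molecules of a gene turns negative when thinned. With all UMIs kept, the parts for Wisp2 were 0.56 and 0.51, those for Cyr61 -0.32 and -1.29, and those for Postn 0.86 and 0.73. Sparc had its whole difference of 0.33 in the level. With all UMIs it was found in a mean of 97.8% of barcodes in both groups, so its share could hardly rise. Over 5921 genes found in 2% or more of barcodes, the groups did not overlap in the share for 52% (26.3% with disease higher) and in the level per positive barcode for 27.7% (13.7% with disease higher). The members chosen on this contrast are not set against these shares. Just outside the gate, 406 barcodes with 3 or 4 UMIs of the gate genes had Postn in 7.39% and Cyr61 in 24.4%. Just inside, 111 barcodes with 5 or 6 UMIs had them in 6.31% and 36.9%.

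Mural cells, the pericytes and smooth muscle of vessel walls, also carried Postn, at 43.6% to 278% of the fibroblast level of the same library. It was at 281 and 143 CPM in control libraries, against 93.7, 334 and 349 CPM in disease, from 15 to 86 UMIs per library, with no separation of the groups. Only 42 to 90 mural barcodes were found per library, so no fit was made. Cyr61 was at 815 and 834 CPM in control mural cells and at 262, 222 and 355 CPM in disease, again every disease library below both controls. The endothelial list in mural barcodes also did not overlap, at 5715 and 4130 CPM in control libraries against 6963, 8922 and 6830 CPM in disease, and its part was not tested. Among 3107 genes with 50 or more mural UMIs, the groups did not overlap in 33.2%, and 17.3% had all disease libraries below the controls. Ctgf (98.1 and 198 against 281, 79.4 and 212 CPM) and Thbs1 (137 and 181 against 50.0, 183 and 126 CPM) overlapped. Sparc was at 1926 to 2832 CPM. Wisp2, Cilp, Comp, Tnc and Cthrc1 had 0 or 1 mural UMI in each library. The fibroblast check markers stood at 930 to 1269 CPM in mural barcodes, 2.18% to 5.05% of their fibroblast level.

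**Figure D3:**
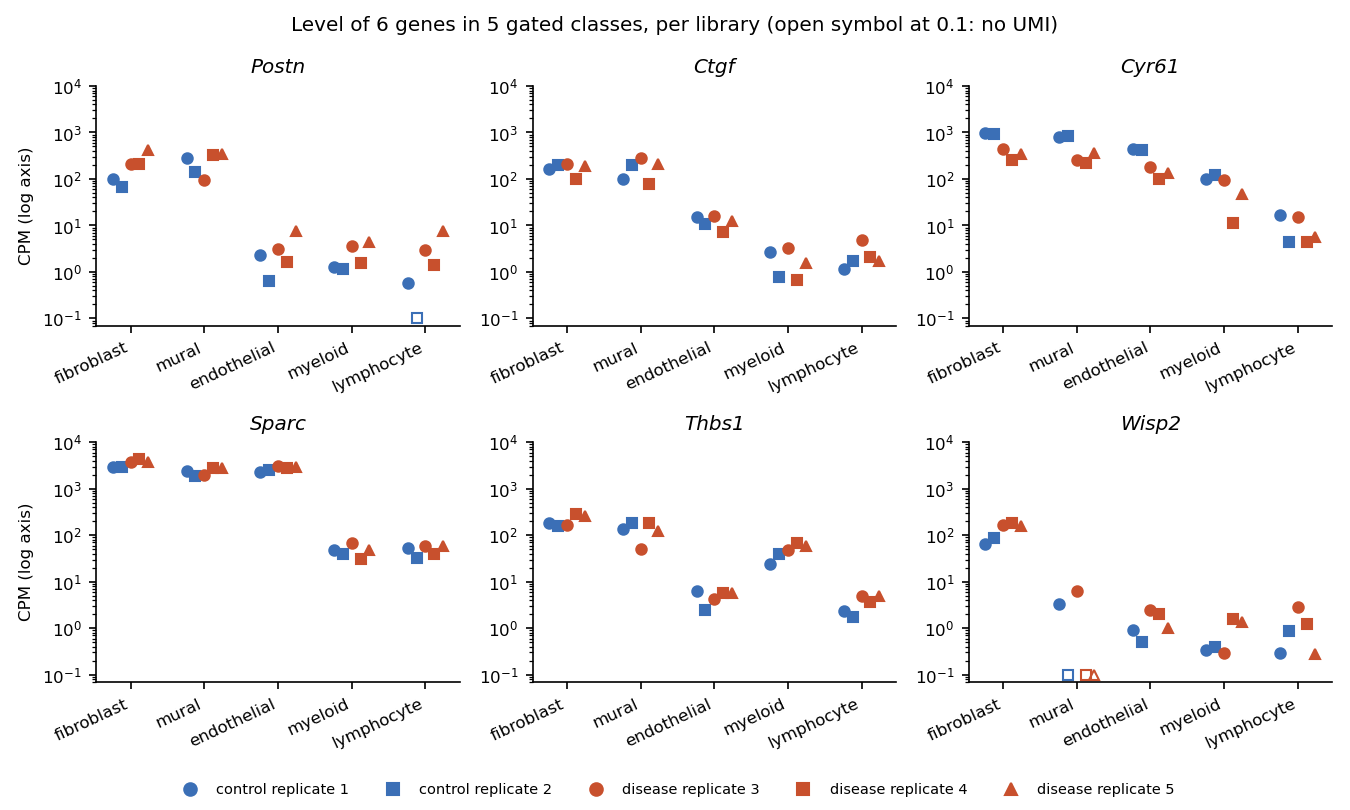
Level of 6 genes in 5 gated classes (log axis, CPM), 1 point per library, with open symbols where no UMI was found. Postn and Ctgf are high in fibroblast and mural barcodes, Sparc also in endothelial barcodes, Wisp2 in fibroblasts, and the control libraries lie above the disease libraries for Cyr61 in fibroblast, mural, endothelial and myeloid barcodes.

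Endothelial cells expressed a narrower set, and in them Cyr61 was the 1 member called. It was at 450 and 428 CPM in control libraries, against 178, 100 and 132 CPM in disease, with every disease library below both controls. The log2 fold change was -1.74 (SE 0.24, edgeR quasi-likelihood adjusted p 0.00766, range over the alternatives 1.48e-07 to 0.0622). Of 12252 genes tested 11.9% were called lower and 0.343% higher (12.3% in all), so 1 of 8 tested members lies near that background. The call was lost without control replicate 2 (adjusted p 0.0573) and without disease replicate 5 (0.0622). With the GC trend removed (rho -0.43 across genes) the log2 fold change was -1.11. Within each library the endothelial level of Cyr61 was 38.4% to 45.8% of the fibroblast level, and the myeloid level 4.24% to 22.2%. Myeloid Cyr61 was at 99.9 and 123 CPM in control libraries, against 96.8, 11.1 and 47.9 CPM in disease, again with every disease library below both controls, replicate 3 only narrowly, a difference that was not tested.

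Sparc, which is made by endothelium as well as fibroblasts, was at 2298 and 2559 CPM in control endothelial barcodes and 3051, 2729 and 2893 CPM in disease (log2 fold change 0.19, SE 0.11, adjusted p 0.358 in edgeR, and 0.47 with the GC trend removed). The groups did not overlap, as in 46.8% of the genes tested. Ctgf was low, at 15.0 and 10.7 against 16.0, 7.10 and 12.4 CPM (log2 fold change -0.16, SE 0.35, adjusted p 0.805, and 0.43 with the GC trend removed). Postn was at 0.635 to 7.44 CPM and Wisp2 at 0.508 to 2.43 CPM in endothelial barcodes, within or near the lymphocyte values of 0 to 7.68 and 0.285 to 2.91 CPM. These levels are read as background RNA and not as endothelial expression. Thbs1 was at 2.41 to 6.35 CPM in endothelial barcodes but at 23.6 to 67.5 CPM in myeloid barcodes, where the controls (23.6 and 38.5 CPM) lay below the disease libraries (48.5, 67.5 and 57.9 CPM), a difference that was not tested.

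Fibroblasts with a Postn UMI were compared with those without one in the same library, and most of the tested members were higher in the former. After thinning to 1000 UMIs there were 131, 40, 109, 125 and 210 positive barcodes in replicates 1 to 5, and 1303 to 2999 negative barcodes, some of which had Postn molecules that were not drawn. Sums per library were compared with edgeR's quasi-likelihood test with the library as a block. Of 7508 genes 171 were called higher, which is 2.28%, and 148 lower, which is 1.97% (4.25% in either direction). Of the 8 members tested, 6 were higher in Postn-positive barcodes and none was lower.

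Cilp had the largest difference of the 8. It was at 527, 1275, 633, 688 and 1133 CPM in positive barcodes of replicates 1 to 5 and at 41.0, 41.4, 62.8, 118 and 79.9 CPM in negative ones. It was higher in 5 of 5 libraries, with a log2 fold change of 3.53 (SE 0.15, adjusted p 6.85e-33 in edgeR). Tnc was at 15.3, 25, 0, 144 and 162 CPM in positive barcodes and at 3.67, 0.767, 1.73, 14.2 and 12.6 CPM in negative ones (log2 fold change 3.33, SE 0.34, adjusted p 7.04e-13). It was higher in 4 of 5 libraries, and replicate 3 had no Tnc UMI in 109 positive barcodes. The control libraries had 2 and 1 Tnc UMIs in positive barcodes, so their values rest on very few molecules. Comp was at 30.5, 50.0, 165, 16.0 and 95.2 CPM against 5.67, 12.3, 47.3, 5.48 and 24.1 CPM (log2 fold change 1.91, SE 0.31, adjusted p 3.20e-06), higher in every library. Its values in positive barcodes rest on 4, 2, 18, 2 and 20 UMIs, so several libraries again hold very few molecules.

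Ctgf, whose level did not separate the genotypes, did separate these cells. It was at 626, 675, 569, 280 and 367 CPM in positive barcodes and at 149, 184, 192, 110 and 159 CPM in negative ones (log2 fold change 1.57, SE 0.13, adjusted p 4.21e-16). Sparc was higher in every library, at 4125 to 6328 CPM against 2595 to 3614 CPM (log2 fold change 0.79, SE 0.07, adjusted p 3.94e-15). Thbs1 had a log2 fold change of 0.72 (SE 0.15, adjusted p 2.65e-04). It was 625 against 165 CPM in control replicate 2, which has 40 positive barcodes, and 174 against 172 CPM in disease replicate 3.

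Wisp2 and Cyr61 showed no such difference. Wisp2 was at 68.7, 25, 110, 120 and 248 CPM in positive barcodes and at 79.4, 93.6, 182, 204 and 123 CPM in negative ones. It was lower in 4 libraries and higher in disease replicate 5, with a log2 fold change of -0.04 (SE 0.21, adjusted p 0.977). Without replicate 5 the log2 fold change was -0.76 (adjusted p 0.0608 in edgeR). Cyr61 was at 954, 675, 495, 368 and 333 CPM against 983, 907, 425, 296 and 351 CPM (log2 fold change -0.03, SE 0.11, adjusted p 0.957). Neither p shows that the levels are equal. Cthrc1 was too sparse to be tested.

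**Figure D4:**
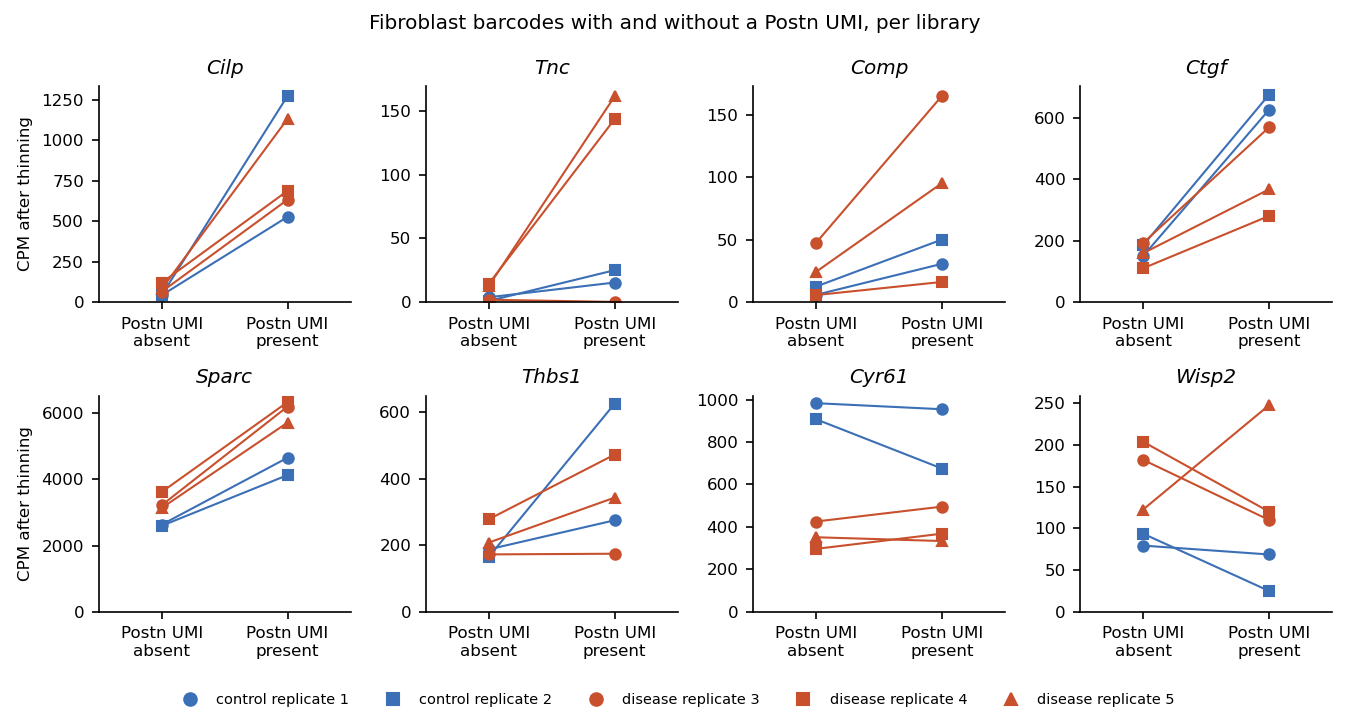
Level of 8 genes (CPM after thinning, linear axis from 0) in fibroblast barcodes without and with a Postn UMI, with 1 line per library (control blue, disease orange). Cilp, Comp, Ctgf and Sparc climb in every library, Tnc in 4 of 5, Cyr61 has no common slope, and Wisp2 falls in all libraries but disease replicate 5.

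Markers of other cells differed in the Postn split. The mural list stood at 351 to 775 CPM in positive barcodes against 129 to 165 CPM in negative ones, and at 112 to 153 against 84.7 to 118 CPM without Acta2 and Tagln. The epicardial list (Msln, Upk3b, Wt1, Upk1b) was at 0 CPM in positive barcodes of 4 libraries and at 9.17 CPM in replicate 3, sums of 0 or 1 UMI, against 29.7, 13.0, 50.1, 27.9 and 8.21 CPM in negative ones of replicates 1 to 5. The gate genes stood at 15931 to 21280 against 19490 to 24650 CPM. With every barcode that had a UMI of Des, Mcam or Higd1b left out, an alternative chosen after seeing the data, Cilp (3.52), Comp (1.93), Ctgf (1.59), Thbs1 (0.79) and Sparc (0.77) were still called higher. Tnc fell below the count filter of that fit. Without the library block only Cilp and Ctgf of the 6 were called.

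The genes most changed in Postn-positive fibroblasts included myofibroblast and matrix genes. Ltbp2, which binds to fibrillin microfibrils, had a log2 fold change of 4.17 (SE 0.31, adjusted p 6.32e-19). By the rule for named genes, those highest were Prg4 (lubricin, 2.72), Tagln (a smooth muscle actin-binding protein, 2.59), Timp1 (an inhibitor of matrix proteases, 2.33), Meox1 (a transcription factor of activated fibroblasts, 1.97), Acta2 (smooth muscle actin, 1.93), C7 (a complement component, 1.86), Cxcl9 (a T cell chemokine, 1.82) and Dkk3 (1.79). Those lowest were Ccl11 (eotaxin, -3.15), Inmt (a methyltransferase, -3.03), Cxcl14 (a chemokine, -2.29) and S100a9 (a neutrophil protein, -2.04).

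Of 17 tested genes of a list of myofibroblast and TGF-beta targets, 10 were higher and 1, Mgp (-0.31), was lower, with a median log2 fold change of 0.71 against -0.01 for all genes tested. Besides Ltbp2, Tagln, Meox1 and Acta2 the higher ones were Col8a1 (1.77), Fn1 (0.92), Bgn (0.73), Col3a1 (0.71), Loxl2 (0.60) and Col5a1 (0.47). Of 15 other matricellular genes, Fstl1 (0.95) and Fbln2 (0.64) were higher and Smoc2 (-1.17), Thbs2 (-1.12), Ogn (-0.61) and Fbln1 (-0.44) lower, with a median of -0.20. Of 16 immediate early and stress genes, none was higher and 8 were lower, from Egr1 (-0.57) and Btg2 (-0.53) to Fos (-0.24), with a median of -0.26. Of 16 genes of the YAP/TAZ and SRF pathway, F3, the tissue factor gene, was lower (-1.32) and none was higher, and of 13 receptors of matricellular proteins none was called in either direction.

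**Figure D5:**
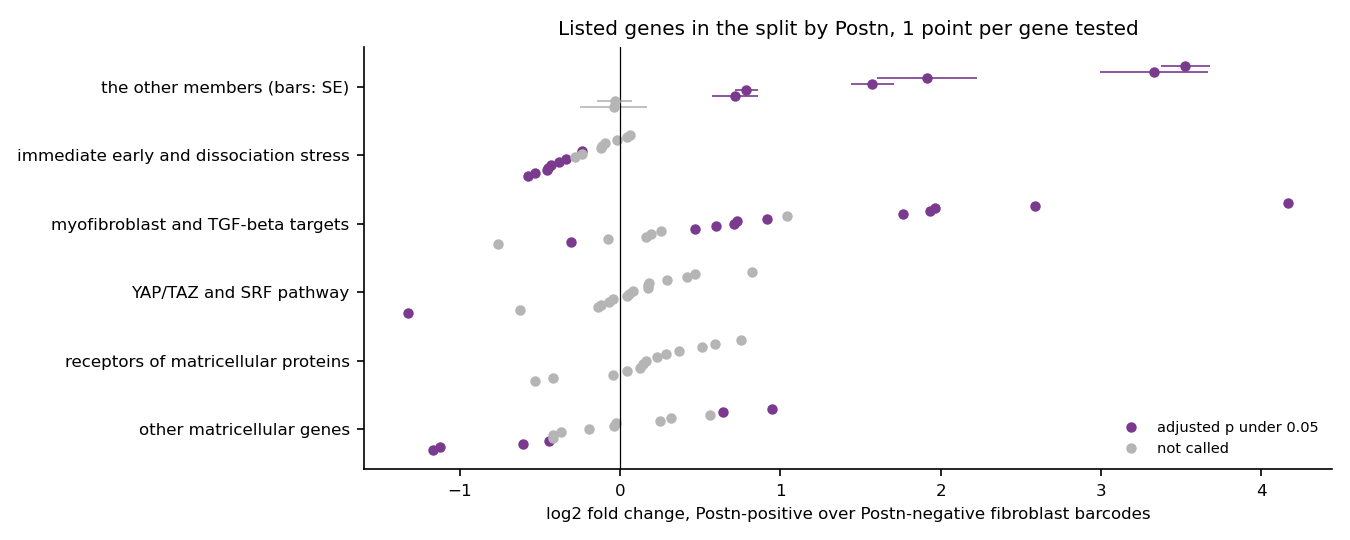
Log2 fold change of Postn-positive over Postn-negative fibroblast barcodes for the tested genes of 5 lists and for the 8 tested members (bars, SE), purple where the adjusted p is under 0.05. Genes of the myofibroblast list lie mostly to the right of 0, immediate early genes mostly to the left, and receptors carry no call.

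Between the genotypes, few genes of these lists were called in fibroblasts. Of 20 tested myofibroblast and TGF-beta targets, Ltbp2 (log2 fold change 1.30, edgeR adjusted p 0.0400) and Tagln (0.73, adjusted p 0.0205) were higher in disease and none was lower, with a median of 0.35 against -0.02 for all genes. Of 21 other matricellular genes, Thbs4 (-1.94), Fbln1 (-1.67) and Smoc2 (-1.58) were lower and none was higher. Of 15 receptors, the thrombospondin receptor Cd47 (-1.25) and the integrin chain Itgb1 (-1.17) were lower, and both were also lower in endothelial barcodes (-1.28 and -1.11). Of 18 genes of the YAP/TAZ and SRF pathway, F3 (-1.80) and Tead3 (-0.80) were lower. In endothelial barcodes, Tead4 (-1.02) was lower among 17 tested. Of 16 immediate early genes, Atf3 (-2.33), Jund (-1.70) and Dusp1 (-1.07) were lower in fibroblasts, and Atf3 (-2.27) and Dusp1 (-0.99) also in endothelial barcodes. None was higher, and the median of that list was -0.17, against 0.04 for the other matricellular genes, -0.06 for the receptors and -0.02 for the YAP/TAZ and SRF pathway. These lists are read against the 12.6% of all genes called lower and the 0.359% called higher.

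Across 10305 thinned fibroblast barcodes, the pair of members that went together most was Postn and Cilp, with Pearson's r of log counts of 0.38 on average over the 5 libraries (0.31 to 0.47). Postn and Sparc were at 0.17, Postn and Ctgf at 0.15 and Postn and Wisp2 at -0.0044. Among 5924 genes found in 2% or more of barcodes, those most like Postn, the other members left out, were Col8a1 (0.24), Aspn (0.20), Mfap4 (0.19), Meox1 (0.18) and Mfap5 (0.17). Those most like Wisp2 were Mfap4 (0.15), Dpep1 (0.15), Sfrp2 (0.14), Ogn (0.14) and Ptn (0.14). The counts of a barcode share 1 library and 1 depth, and the values are given without a test.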

How the data were processed

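Single-cell 5' libraries (10x Genomics) of 5 samples of sorted cardiac cells were analysed from the raw UMI counts per gene and barcode that the authors deposited. Cell Ranger 3.1.0 made the matrices, per the file headers. The submitters' processing notes name Cell Ranger 3, Seurat 3 and the builds GRCh38 and mm10 with no role. The annotation and the cell calling are not given in the sources used here. Barcodes with at least 500 UMIs, 200 genes and at most 10% mitochondrial UMIs were kept, and 1426 doublets called by Scrublet (3.01%) were removed, in scanpy 1.11.5. Barcodes meeting more than 1 marker gate (2313) were set aside. Gates needed 5 UMIs, or 3 for lymphocytes. Counts were summed per library and class and tested in edgeR 4.0.16 (TMM, filterByExpr, quasi-likelihood test, Benjamini-Hochberg over all genes tested) with DESeq2 1.42.0 as an alternative (R 4.3.3). Classes with fewer than 50 barcodes in a library were not fitted. For shares and for the split by Postn, each barcode was thinned to 1000 UMIs by drawing without replacement.

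The fits were tested on simulated counts with 100 genes changed at each of 2 sizes. Changes of 1 and 2 on the log2 scale were recovered for 85% and 95% in fibroblasts (13373 genes). The shares were 66% and 97% in endothelial barcodes (12252 genes) and 49% and 83% in the Postn split (7509 genes). False calls made up 5.76%, 4.12% and 2.94% of the calls, in the same order. Recovery in the measured counts was not tested. In the measured fibroblast counts, 2 members were called higher, 1 lower and 7 were not called. Among the 7 were Comp (log2 fold change 1.54, SE 1.05) and Tnc (3.01, SE 1.28). Members and lists were chosen with earlier results of these data known. Named genes are the 10 members, list genes that passed the test (otherwise up to 4 of the largest change), the 5 genes most correlated with Postn or Wisp2, and in the Postn split the 8 largest rises and 4 largest falls among called genes with a mean of at least 5 log2 CPM. Same-numbered samples do not occur across genotypes. GC content came from the GENCODE transcripts. The values of 1 further list of markers of another cell type, which also differed in the split by Postn, are not reported here.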

Additional observations from a re-analysis of the deposited data

How the results depend on the processing

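No paired analysis was possible because the control and disease libraries share no replicate number in the labels. In the split by Postn, where both sums come from 1 library, the fit without the replicate block called 47 genes, DESeq2 called 193 and thinning to 2000 UMIs gave 626, against 319. Leaving out 1 library gave 254 to 289 there, 829 to 1809 in fibroblasts (1735 with all) and 742 to 1473 in endothelial barcodes (1503 with all). The low values were those without control replicate 2 (829 and 742), without disease replicate 5 (923 and 801) and, in fibroblasts, without control replicate 1 (1139). Without the block Comp, Tnc, Thbs1 and Sparc lost their calls in the split by Postn (adjusted p 0.439, 0.0672, 0.396 and 0.0906). Under the other alternatives that gave a p, the 6 calls held, with Thbs1 highest at 0.0387. DESeq2 gave no adjusted p for Tnc, and Tnc had too few counts without disease replicate 4. Over 44 single-gene values and 494 alternatives none of the called values changed sign, and 14 lost and 6 gained a call. A shift was set against its error only where the sign changed, no adjusted p was given, or a share or level was compared. There, 22 values moved by more than their error. Among them was the called Cyr61 in fibroblast (-0.87) and endothelial (-1.11) barcodes with the GC trend removed. Other shifts were not counted, such as that of Wisp2 in the split by Postn, from -0.04 to -0.76 without disease replicate 5. The mural fit was not run, since disease replicate 3 had 42 mural barcodes against the minimum of 50. In fits that leave 1 control, that library is assumed to vary like the others. Depth limits the sparse genes most: Cthrc1 had 6 to 42 fibroblast UMIs per library and Tnc 13 to 606.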

Other observations

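With the members themselves left out, among the 5 most correlated genes of each of 9 members (Cthrc1 was too sparse), Mfap4 recurred for 6 members and Col8a1 for 4. Over the 5 libraries, the genes most correlated with Cyr61 across thinned fibroblast barcodes were Fos (mean r 0.15), Egr1 (0.15), Dusp1 (0.12), Jun (0.11) and Fosb (0.10), all immediate early genes. Thbs1 went most with Mt1 (0.16), Junb (0.15), Nr4a2 (0.13), Mt2 (0.12) and Nr4a1 (0.11), the metallothioneins and orphan receptors of stress responses. Sparc went with the matrix genes Bgn (0.26), Serpinh1 (0.21) and Col3a1 (0.20), and Ctgf with Mfap4 (0.21) and Col8a1 (0.18). Cilp went with Mfap4 (0.28), Col8a1 (0.25) and Prg4 (0.23), the last being found in 3.92% of barcodes. These are weak correlations of sparse counts from barcodes that share a library, and they are given as a description. The genes named here fall outside the rule for named genes and were chosen after their values were seen.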
